A study of Mus musculus with 18 samples.

Results

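The genes described here are 33 genes of the lysosome, given as a fixed list by symbol: 19 acid hydrolases, 2 soluble cofactors, 7 membrane proteins and 5 subunits of the proton pump, the V-ATPase. Each was read from the brightest probe set that carries its symbol alone, and all 33 had exactly 1 such probe set, so 33 of the 19938 genes measured are members. The hydrolases divide into 8 proteases and peptidases, 8 glycan-degrading enzymes, 7 glycosidases and the sulfatase Sgsh, and 3 lipid hydrolases.

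The lysosome is the acidic compartment in which cells break down protein, glycans, lipids and nucleic acids. Most of its soluble hydrolases are made in the endoplasmic reticulum (ER), receive N-linked glycans there, are tagged with mannose 6-phosphate in the Golgi and are carried to the lysosome by mannose 6-phosphate receptors. The V-ATPase acidifies the lumen, and the heavily glycosylated membrane proteins line it and carry products out. Many lysosomal genes are switched on together by the transcription factors TFEB, TFE3 and MITF, which bind E-box sequences in their promoters. In pigment cells, lysosomes and melanosomes draw on the same trafficking machinery and share several membrane proteins.

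Expression was measured in B16 F10.9-4 cells, a mouse line of the B16 melanoma, in which doxycycline induces overexpression of LIP, the short isoform of C/EBPβ, a transcription factor. Tunicamycin blocks the first step of N-linked glycosylation and loads the ER with unfolded protein. The groups were doxycycline with tunicamycin for 0, 5 and 12 h, and, without doxycycline, vehicle at 0 h and tunicamycin for 5 and 12 h. Each of the 6 groups held 3 arrays, 1 from each of 3 independent experiments. Neither vehicle arrays at 5 or 12 h nor cells lacking the LIP construct were used here. Hence tunicamycin and hours in culture cannot be told apart, and nor can LIP and the drug doxycycline. All 6 groups come from 1 cell line, and the probe set of Cebpb reads LIP and the longer isoforms together.

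Values are log2 intensities as deposited, and with 3 arrays a group their number limits the precision. Probe sets differ in brightness, so each gene is compared only with itself. A gene is called changed where limma's adjusted p, taken over all 19938 genes, is under 0.05. Where the arrays of groups stand apart without a call, that is description only, since the share of all genes doing so was not computed. Changes are log2 differences, the first-named group minus the second, with their standard error (SE). Every call among the members was in the same direction in 3 of 3 experiments. The groups of their pairwise calls did not overlap, so any pairing of arrays gives that direction and it is no separate support. Arrays of 1 group correlated at r = 0.997 to 0.999, and the largest residual spreads were those of experiment 2 at 5 h (SD 0.113) and experiment 3 at 12 h (SD 0.0895), both with tunicamycin and no doxycycline. Member counts without these 2 arrays are given with the alternatives. The treatments registered: Cebpb was higher with doxycycline by 1.84, 1.81 and 1.22 at 0, 5 and 12 h. At 12 h of tunicamycin the stress factor Ddit3 had risen by 2.95 with doxycycline and 2.89 without it, and Cebpb by 0.34 and 0.96. Hspa5, also read as a check of the treatments, had risen by 0.90 and 0.69 at 12 h. Its 5 h change was 0.16 with doxycycline and -0.01 without, the latter not called. With doxycycline against without, Ddit3 differed by -0.35, -0.20 and -0.28 at 0, 5 and 12 h, the 5 h difference not called. All 10 melanocyte markers lay above the 95th percentile of 1179 olfactory and vomeronasal receptor genes, which stand in for silent genes, and 0 of 8 macrophage and leukocyte markers did. Of the fibroblast, endothelial and epithelial markers 4 of 7, 2 of 6 and 3 of 6 did, the highest being Col1a2 at 7.90. Since these are bulk RNA samples, fewer cells of a kind and less RNA per cell cannot be told apart.

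Of the 33 members 32 lay above that percentile (6.09); the exception was Ctsk, the cysteine protease known from osteoclasts, at 5.53. Of the measured genes other than the receptors, 70.3% lay above that level, so shares of all genes take in more dim genes. No comparison with genes of like brightness was made. Across the 6 groups 26 of 33 members differed (limma F test), against 43% of all genes. Those that did not pass were the proteases Ctsd and Ctsk, the glycogen-degrading Gaa, the ceramidase Asah1, the tetraspanin Cd63 and the pump subunits Atp6v0a1 and Atp6v1h. The promoters of the members are shown first because the E-box is the sequence that the factors controlling lysosomal genes bind.

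In the RefSeq promoter windows of GRCm38.p6, which run from 250 bases before to 50 after an annotated start, 28 of the 33 members had an entry, with 32 windows in all. The E-box CACGTG, searched on both strands, was in 14 of the 32 windows (43.8%), against 7.15% of 32851 windows of all genes. Its longer form TCACGTGA, every match of which also holds CACGTG, was in 7 (21.9%), against 0.974%. Other patterns were searched in the same way. TGATGNAAN, a composite site of ATF4 and C/EBP factors, was in 3 windows (9.38% against 3.95%). TTGCNNNAA, whose spacing is not that of the C/EBP consensus, was in 4 (12.5% against 9.56%) and is not counted as a C/EBP site. CCACGTCA, an element of the unfolded protein response, was in 0 (against 0.676%). In Cln3 the TGATGNAAN match at -145 overlaps the E-box at -149. The median GC content was 56.5% in the members' windows and 52.7% in all windows. A match is a description of these letters and not of binding.

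The stretches below are the upstream sequence of 6 members whose expression is described further on, written 5′ to 3′ on the gene's strand with each CACGTG in capitals; Gusb and Npc2, which had the largest fall and the largest doxycycline difference among members, hold none within their windows.
Lamp1, chr8:13159080-13159160 (plus strand), bases -81 to -1: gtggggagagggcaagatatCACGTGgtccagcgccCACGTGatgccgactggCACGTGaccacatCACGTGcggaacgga
Mcoln1, chr8:3500428-3500499 (plus strand), bases -91 to -20: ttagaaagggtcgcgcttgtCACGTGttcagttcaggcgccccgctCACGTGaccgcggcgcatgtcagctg
Cln3, chr7:126583332-126583405 (minus strand), bases -169 to -96: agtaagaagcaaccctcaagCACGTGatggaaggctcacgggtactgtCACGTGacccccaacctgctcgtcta
Sgsh, chr11:119355514-119355559 (minus strand), bases -49 to -4: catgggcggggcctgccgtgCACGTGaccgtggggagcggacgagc
Gusb, chr5:130003050-130003129 (minus strand), bases -80 to -1: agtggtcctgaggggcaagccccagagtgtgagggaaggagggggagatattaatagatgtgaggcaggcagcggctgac
Npc2, chr12:84773113-84773192 (minus strand), bases -80 to -1: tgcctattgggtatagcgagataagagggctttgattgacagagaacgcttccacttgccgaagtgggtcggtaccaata

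Lamp1, which encodes a major glycoprotein of the lysosomal membrane, had 4 copies of CACGTG within 61 bases of its start, and the cation channel gene Mcoln1 and the Batten disease gene Cln3 had 2 each. Those of Cln3 are in the window shown, and its other window, at a start further upstream, holds none. Ctsa and Lgmn also have a window without an E-box. A gene is counted as holding an E-box where any of its windows does. At 12 h of tunicamycin with doxycycline, 2 of the 14 members with an E-box rose and 7 fell. Of the 14 with a window but no E-box, 2 rose and 5 fell, beside 13.4% of all genes rising and 16.6% falling. Without doxycycline the counts were 3 rising and 7 falling with an E-box, and 1 rising and 4 falling with none. Beside these, 11.9% of all genes rose and 15.8% fell. No test was made of the difference between members with and without an E-box. Among members holding CACGTG, Mcoln1 rose and Lamp1 fell at 12 h without doxycycline. Their windows are not alike, since that of Mcoln1 holds 1 copy of TCACGTGA and that of Lamp1 holds 0. Whether the E-box bears on either change was not tested.

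**Figure D1:**
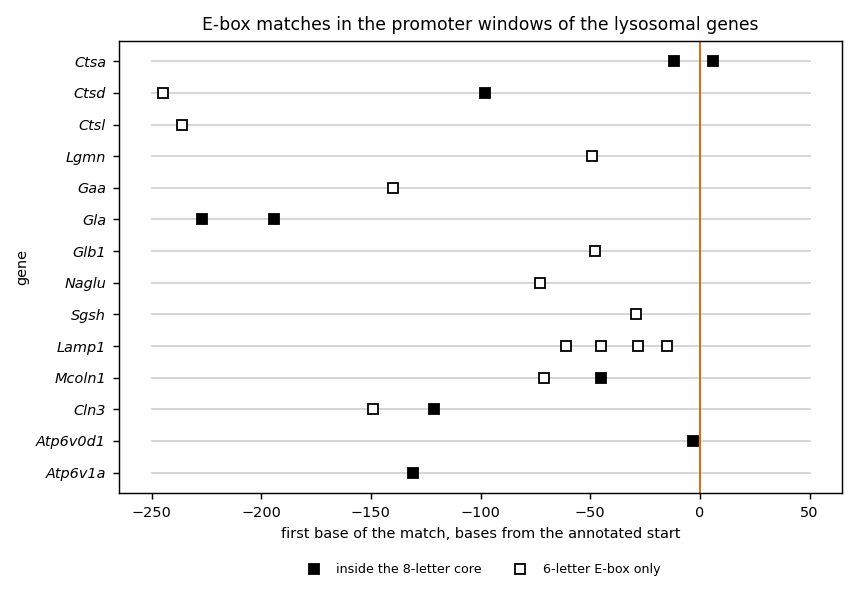
E-box matches in the promoter windows of the 14 members that hold one; the x axis gives the first base of each match in bases from the annotated start, and filled squares mark matches that lie inside the longer core TCACGTGA. Lamp1 has 4 matches, all just upstream of its start, while the single match of Ctsl lies at -236.

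At 12 h of tunicamycin the lysosomal genes split, with more falling than rising. With doxycycline 13 of 33 members fell (16.6% of all genes fell) and 4 rose (13.4%), against doxycycline at 0 h. Once the array medians were made equal, 12 members fell and 5 rose, while the split of all genes turned: 2667 up and 3304 down became 2957 and 2680. Without doxycycline 12 fell (15.8%) and 5 rose (11.9%), against vehicle. The members' median change was -0.11 with doxycycline and -0.09 without it, beside -0.02 and 0.00 over all genes. As shares, 39.4% of members fell with doxycycline and 36.4% without, above the shares of all genes, while 12.1% and 15.2% rose, near them. All genes include a larger part of dim genes than the members do, and the part of brightness in these shares was not tested. The largest change was that of Gusb, β-glucuronidase, which fell by 39.6% with doxycycline and fell by 42.3% without it. In both conditions the proteases Ctsb, Ctsz, Lgmn and Tpp1, the glycan-degrading Gusb and Sgsh, the membrane proteins Lamp1 and Cln3 and the pump subunit Atp6v1a fell, 9 of the 13 and of the 12. The 3 that rose in both, of 4 and of 5, were Ctsl, Lipa and Atp6v0d1. Beside these changes 7 of the 10 melanocyte markers fell at 12 h with doxycycline and 4 without it. Their summed log2 level ranged from 108.0 to 108.3 at 12 h with doxycycline and from 111.5 to 111.9 at 0 h, and from 114.1 to 114.7 at 12 h without it and from 115.4 to 116.1 in vehicle; their part in the members' values was not tested.

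The pattern at 12 h was uneven between the classes. Of the 19 hydrolases 10 fell and 2 rose with doxycycline, and 9 fell and 2 rose without it. The 7 membrane proteins had 2 falls and 0 rises with doxycycline, and 2 falls and 2 rises without it. Among the 5 V-ATPase subunits 1 fell and 1 rose under each condition. Over all genes 16.6% fell and 13.4% rose with doxycycline, and 15.8% fell and 11.9% rose without it. The hydrolases' median was -0.18 with doxycycline and -0.10 without, and that of the V-ATPase subunits 0.03 and 0.02; whether the classes differ was not tested.

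**Figure D2:**
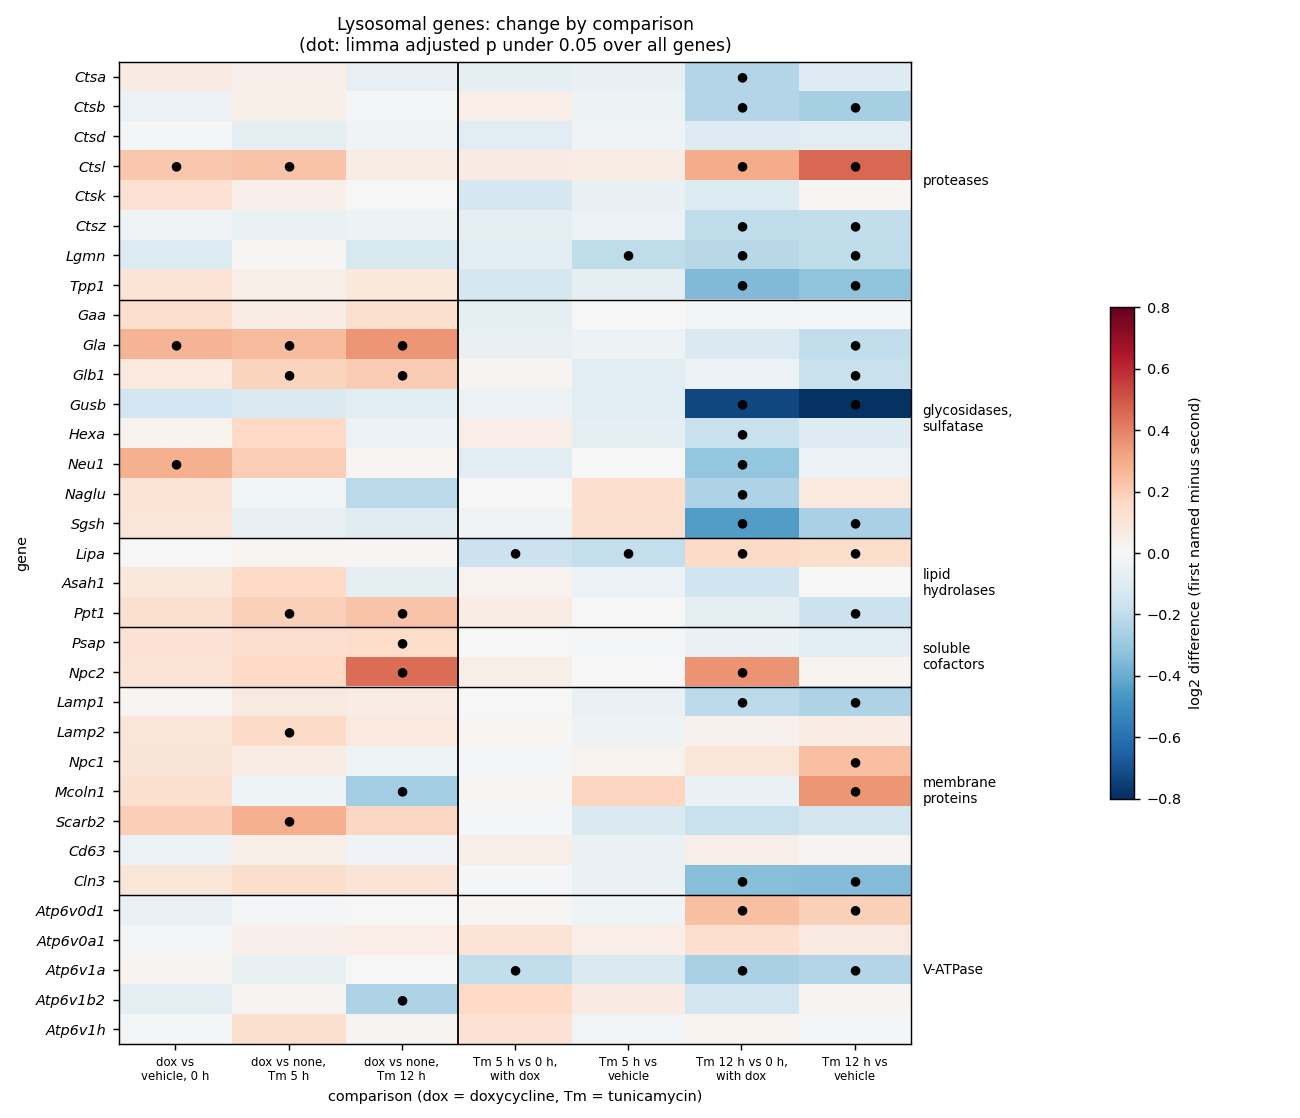
Log2 change of each of the 33 members in 7 comparisons, coloured from blue (lower in the first-named group) to red (higher), with a dot where limma's adjusted p over all genes was under 0.05; members are grouped by class. Both columns on the right, 12 h of tunicamycin with and without doxycycline, hold 17 dots each, and the columns of tunicamycin at 5 h hold 2 each.

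Few members were called at 5 h. At 5 h of tunicamycin 2 members fell with doxycycline (5.56% of all genes) and 0 rose (6.54%), the lipase Lipa and the pump subunit Atp6v1a; without doxycycline 2 fell (4.94%) and 0 rose (4.08%), Lipa and the protease Lgmn. Between 5 and 12 h with doxycycline 12 fell (15.4%) and 4 rose (10.9%). Without doxycycline 9 fell (13.6%) and 5 rose (11.4%) over the same interval. The 5 and 12 h comparisons share their 0 h arrays, and the 12 h against 5 h comparison shares arrays with both. Over all genes, 813 were up and 985 down at 5 h without doxycycline, but 495 and 1578 once the array medians were made equal; between 5 and 12 h without doxycycline the 2264 up and 2719 down became 2606 and 1868. Between 5 and 12 h with doxycycline 2167 up and 3079 down became 2453 and 2403, with 9 members falling and 4 rising.

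The comparison of doxycycline with no doxycycline covers LIP induction and the drug together. Before tunicamycin 3 of 33 members rose (4.89% of all genes) and 0 fell (5.82%): Gla, Neu1 and Ctsl. At 5 h of tunicamycin 6 rose (6.76%) and 0 fell (5.21%), namely Gla, Glb1, Ctsl, Ppt1, Lamp2 and Scarb2. At 12 h 5 rose (6.95%), Gla, Glb1, Ppt1, Npc2 and Psap, and 2 fell (7.77%), Mcoln1 and Atp6v1b2. Gla, which encodes α-galactosidase A, was the member called at all 3 times. Beside these differences 8, 9 and 9 of the 10 melanocyte markers fell with doxycycline at 0, 5 and 12 h, and their summed level was lower on every doxycycline array than on any array without it at the same time; their part in the members' values was not tested. As shares of members 9.09, 18.2 and 15.2% rose and 0, 0 and 6.06% fell at the 3 times, counts of few genes. Over all genes the 0 h split of 974 up and 1161 down became 587 and 1761 once the array medians were made equal.

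The proteases divided at 12 h into 1 rising gene and 5 falling ones with doxycycline, and 1 rising and 4 falling without it. The shares of all genes were 13.4% rising and 16.6% falling with doxycycline, and 11.9% and 15.8% without. Ctsl (probe set 10410124), the cysteine protease cathepsin L, was the member that rose most without doxycycline. With doxycycline, Ctsl stood at 12.35, 12.39 and 12.39 at 0 h, 12.43, 12.43 and 12.46 at 5 h and 12.66, 12.64 and 12.72 at 12 h of tunicamycin. Without doxycycline, Ctsl stood at 12.17, 12.16 and 12.14 in vehicle, 12.20, 12.25 and 12.19 at 5 h and 12.65, 12.57 and 12.63 at 12 h of tunicamycin. Its 12 h values lay above all 0 h values in both conditions, and at 0 and 5 h all values with doxycycline lay above all values without. The change at 12 h was 0.30 ± 0.042 (SE, adjusted p = 1.39e-05) with doxycycline and 0.46 ± 0.042 (SE, adjusted p = 7.53e-08) without it. With doxycycline against without, Ctsl was higher by 0.22 ± 0.042 (SE, adjusted p = 0.00183) at 0 h and 0.23 ± 0.042 (SE, adjusted p = 0.000944) at 5 h, and the difference at 12 h was 0.06 ± 0.042 (SE, adjusted p = 0.481). The 0 h call was lost without experiment 3 (adjusted p = 0.108), as was the 5 h call (0.0843).

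Tpp1 (probe set 10566529), a peptidase that removes tripeptides from protein ends, fell under both conditions. With doxycycline, Tpp1 stood at 11.95, 11.83 and 11.87 at 0 h, 11.77, 11.66 and 11.81 at 5 h and 11.50, 11.55 and 11.54 at 12 h of tunicamycin. Without doxycycline, Tpp1 stood at 11.81, 11.70 and 11.80 in vehicle, 11.70, 11.72 and 11.67 at 5 h and 11.39, 11.51 and 11.44 at 12 h of tunicamycin. All 12 h values lay below all 0 h values. The change at 12 h was -0.35 ± 0.053 (SE, adjusted p = 2.83e-05) with doxycycline and -0.32 ± 0.053 (SE, adjusted p = 8.07e-05) without.

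Ctsb (probe set 10415844), the cysteine protease cathepsin B, was called lower at 12 h and was not called at 5 h. With doxycycline, Ctsb stood at 11.43, 11.43 and 11.46 at 0 h, 11.50, 11.47 and 11.51 at 5 h and 11.12, 11.22 and 11.28 at 12 h of tunicamycin. Without doxycycline, Ctsb stood at 11.53, 11.46 and 11.47 in vehicle, 11.51, 11.37 and 11.46 at 5 h and 11.25, 11.23 and 11.18 at 12 h of tunicamycin. The 12 h arrays stood below those of both earlier times. The 12 h change was -0.23 ± 0.049 (SE, adjusted p = 0.00102) with doxycycline and -0.27 ± 0.049 (SE, adjusted p = 0.00032) without, and between 5 and 12 h with doxycycline it was -0.29 ± 0.049 (SE, adjusted p = 0.000178).

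Of the other proteases, Ctsz and Lgmn fell in both conditions at 12 h. The carboxypeptidase Ctsz fell by 13.3% with doxycycline (adjusted p = 0.00457) and by 12.7% without (adjusted p = 0.0071). Lgmn, an asparagine-specific protease that processes cathepsins, fell by 14.1% with doxycycline (adjusted p = 0.00392) and by 13.1% without (adjusted p = 0.0077). Its fall at 5 h without doxycycline, -0.20 ± 0.055 (SE, adjusted p = 0.0252), depended on single arrays, with adjusted p = 0.0991 to 0.131 when 1 of these arrays was left out, vehicle experiments 1 and 3 and tunicamycin 5 h experiment 2. Ctsa, the protective protein that holds Neu1 and Glb1 in a complex, had a change of -0.23 ± 0.045 (SE, adjusted p = 0.000454) with doxycycline and of -0.10 ± 0.045 (SE, adjusted p = 0.0996) without. The aspartic protease Ctsd had a change of -0.10 with doxycycline and -0.09 without and was called in 0 of the 11 comparisons, as was Ctsk (-0.11 with doxycycline and 0.01 without).

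**Figure D3:**
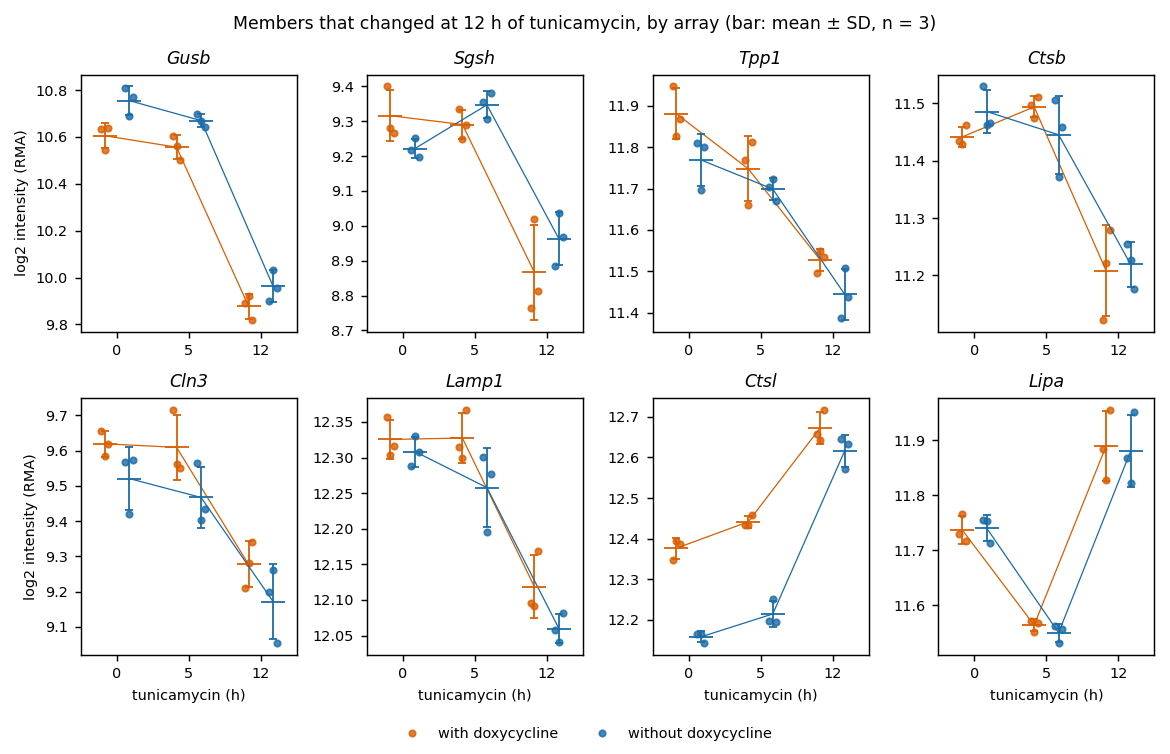
Log2 intensity of 8 members on each of the 18 arrays against hours of tunicamycin, with doxycycline in orange at the left of each pair and without in blue; points are arrays, bars the mean ± SD of 3 arrays, and each panel has its own axis. Gusb, Sgsh, Tpp1, Ctsb, Cln3 and Lamp1 are lowest at 12 h, Ctsl is highest at 12 h, and Lipa is lowest at 5 h and highest at 12 h.

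Among the glycosidases and the sulfatase, 5 of 8 fell with doxycycline and 4 of 8 without at 12 h, and 0 rose in either condition. Beside these, 16.6% of all genes fell and 13.4% rose with doxycycline, and 15.8% and 11.9% without. Gusb (probe set 10534102) encodes β-glucuronidase, which cleaves glucuronic acid from glycosaminoglycans. With doxycycline, Gusb stood at 10.63, 10.54 and 10.64 at 0 h, 10.60, 10.56 and 10.50 at 5 h and 9.89, 9.92 and 9.82 at 12 h of tunicamycin. Without doxycycline, Gusb stood at 10.81, 10.69 and 10.77 in vehicle, 10.70, 10.67 and 10.64 at 5 h and 9.90, 10.03 and 9.96 at 12 h of tunicamycin. The 5 h arrays overlapped the 0 h arrays, and the 12 h arrays lay below both. Its 12 h change of -0.73 ± 0.051 (SE, adjusted p = 2.13e-09) with doxycycline and -0.79 ± 0.051 (SE, adjusted p = 7.97e-10) without was the largest of all members in both conditions. At 0 h the doxycycline difference was -0.15 ± 0.051 (SE, adjusted p = 0.0714).

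Sgsh (probe set 10393648) encodes the sulfatase that acts on heparan sulfate. With doxycycline, Sgsh stood at 9.40, 9.28 and 9.27 at 0 h, 9.33, 9.25 and 9.29 at 5 h and 8.76, 9.02 and 8.81 at 12 h of tunicamycin. Without doxycycline, Sgsh stood at 9.22, 9.25 and 9.20 in vehicle, 9.35, 9.31 and 9.38 at 5 h and 8.88, 9.04 and 8.97 at 12 h of tunicamycin. The 12 h values were the lowest in both conditions, and the 5 h values without doxycycline were all above those in vehicle. The 12 h change was -0.45 ± 0.062 (SE, adjusted p = 1.17e-05) with doxycycline and -0.26 ± 0.062 (SE, adjusted p = 0.00324) without; the difference of these, -0.19 ± 0.088 (SE, adjusted p = 0.382), did not pass. Naglu, which acts in the same heparan sulfate pathway, had a change of -0.25 ± 0.071 (SE, adjusted p = 0.0116) with doxycycline and of 0.08 ± 0.071 (SE, adjusted p = 0.531) without. The difference of the Naglu changes, -0.32 ± 0.10 (SE, adjusted p = 0.129), passed with array weights (adjusted p = 0.0334) and with a variance trend and robust estimation (0.0477). The Naglu fall with doxycycline had adjusted p = 0.0626 to 0.0705 when 1 of these arrays was left out, doxycycline 0 h experiment 1 and doxycycline and tunicamycin 12 h experiment 1.

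Gla (probe set 10606714), α-galactosidase A, the enzyme lacking in Fabry disease, was higher with doxycycline throughout. With doxycycline, Gla stood at 10.05, 10.05 and 10.04 at 0 h, 10.06, 10.03 and 9.87 at 5 h and 9.89, 9.99 and 9.92 at 12 h of tunicamycin. Without doxycycline, Gla stood at 9.80, 9.74 and 9.80 in vehicle, 9.75, 9.65 and 9.81 at 5 h and 9.60, 9.63 and 9.50 at 12 h of tunicamycin. At each time all 3 arrays with doxycycline stood above all 3 without. The difference was 0.27 ± 0.057 (SE, adjusted p = 0.004) at 0 h, 0.25 ± 0.057 (SE, adjusted p = 0.0052) at 5 h and 0.36 ± 0.057 (SE, adjusted p = 0.000194) at 12 h. Gla had a 12 h change with tunicamycin of -0.11 ± 0.057 (SE, adjusted p = 0.162) with doxycycline and of -0.20 ± 0.057 (SE, adjusted p = 0.012) without, and the call without doxycycline was lost when the 12 h array of experiment 3 without doxycycline was left out (adjusted p = 0.0712). The 12 h against 5 h change without doxycycline, -0.16 ± 0.057 (SE, adjusted p = 0.0499), gave adjusted p = 0.059 with the experiment as a block, and it was lost without 1 of 13 of the 18 arrays (adjusted p = 0.0523 to 0.205). The same change of Ctsz was -0.15 ± 0.052 (SE, adjusted p = 0.045), with adjusted p = 0.0559 with the block and a loss without 1 of 10 arrays (adjusted p = 0.0528 to 0.139).

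Glb1, β-galactosidase, was called higher with doxycycline at 5 and 12 h of tunicamycin, and at all 3 times its doxycycline arrays lay above those without. The difference was 0.18 ± 0.046 (SE, adjusted p = 0.0131) at 5 h and 0.21 ± 0.046 (SE, adjusted p = 0.00368) at 12 h, and the 0 h difference was 0.08 ± 0.046 (SE, adjusted p = 0.364). The 5 h call had adjusted p = 0.0613 to 0.0622 when 1 of these arrays was left out, doxycycline and tunicamycin 5 h experiment 2 and tunicamycin 5 h experiment 3. Its change at 12 h of tunicamycin was -0.05 ± 0.046 (SE, adjusted p = 0.555) with doxycycline and -0.18 ± 0.046 (SE, adjusted p = 0.0059) without.

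Neu1 is the sialidase that shares a complex with Glb1 and Ctsa. Its arrays are given in full because its doxycycline difference at 0 h was the largest among members, a choice made after its values were seen. With doxycycline, Neu1 stood at 9.52, 9.43 and 9.47 at 0 h, 9.51, 9.37 and 9.30 at 5 h and 9.02, 9.27 and 9.19 at 12 h of tunicamycin. Without doxycycline, Neu1 stood at 9.16, 9.13 and 9.28 in vehicle, 9.25, 9.10 and 9.23 at 5 h and 9.15, 9.19 and 9.09 at 12 h of tunicamycin. At 0 h all doxycycline arrays lay above all vehicle arrays, and at 12 h the arrays overlapped. Its doxycycline difference was 0.28 ± 0.069 (SE, adjusted p = 0.0112) at 0 h, 0.20 ± 0.069 (SE, adjusted p = 0.0745) at 5 h and 0.02 ± 0.069 (SE, adjusted p = 0.935) at 12 h. With doxycycline its values at 0 h were all above those at 12 h, a change of -0.31 ± 0.069 (SE, adjusted p = 0.00148), while without doxycycline the groups overlapped (-0.05 ± 0.069 SE, adjusted p = 0.723). The 0 h call of Neu1 had adjusted p = 0.0518 to 0.0545 when 1 of these arrays was left out, doxycycline 0 h experiment 1 and vehicle experiments 1 and 2. Hexa, the α subunit of β-hexosaminidase, had a 12 h change of -0.18 ± 0.055 (SE, adjusted p = 0.0198) with doxycycline and of -0.10 ± 0.055 (SE, adjusted p = 0.216) without, the first with adjusted p = 0.0708 to 0.123 when 1 of these arrays was left out, doxycycline 0 h experiments 1 and 3 and doxycycline and tunicamycin 12 h experiment 1. Gaa, which degrades glycogen, was not called in any of the 11 comparisons and had a change of -0.02 with doxycycline and -0.02 without at 12 h.

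**Figure D4:**
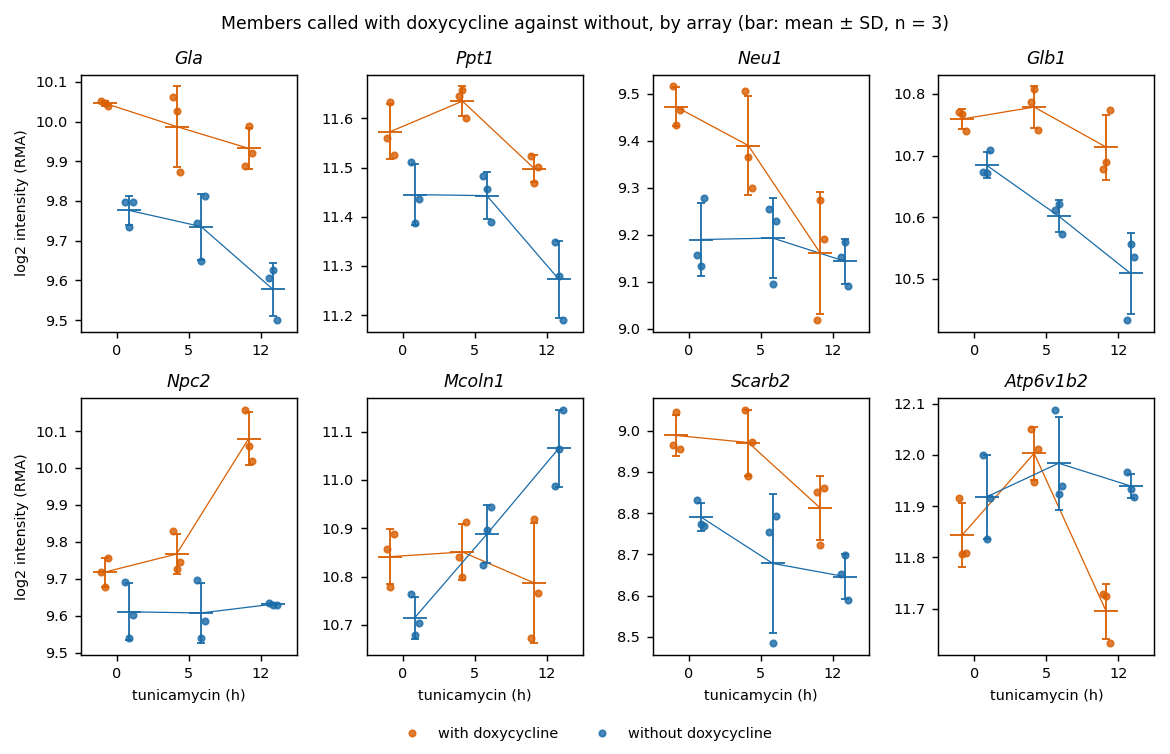
Log2 intensity of 8 members called with doxycycline against without, on each of the 18 arrays; doxycycline arrays are orange and at the left of each pair, arrays without doxycycline are blue, and bars are the mean ± SD of 3 arrays. Gla keeps a gap at all 3 times, the arrays of Neu1 overlap at 12 h, and Npc2 and Mcoln1 separate in opposite directions at 12 h.

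The lipid hydrolases moved in different ways. Lipa (probe set 10467139), the acid lipase that frees cholesterol and fatty acids from lipoprotein lipids, was the only member that was called lower at 5 h and higher at 12 h. With doxycycline, Lipa stood at 11.73, 11.77 and 11.72 at 0 h, 11.57, 11.55 and 11.57 at 5 h and 11.88, 11.83 and 11.96 at 12 h of tunicamycin. Without doxycycline, Lipa stood at 11.75, 11.75 and 11.71 in vehicle, 11.56, 11.53 and 11.56 at 5 h and 11.87, 11.82 and 11.95 at 12 h of tunicamycin. In both conditions the 5 h values lay below all 0 h values and the 12 h values above them. At 5 h the change was -0.17 ± 0.046 (SE, adjusted p = 0.0164) with doxycycline and -0.19 ± 0.046 (SE, adjusted p = 0.0124) without. At 12 h it was 0.15 ± 0.046 (SE, adjusted p = 0.015) with doxycycline and 0.14 ± 0.046 (SE, adjusted p = 0.0271) without, and between 5 and 12 h it was 0.33 ± 0.046 (SE, adjusted p = 1.85e-05) and 0.33 ± 0.046 (SE, adjusted p = 1.7e-05). The 12 h rise without doxycycline depended on single arrays (adjusted p = 0.0506 to 0.15 when 1 of these arrays was left out, vehicle experiments 1, 2 and 3 and tunicamycin 12 h experiments 1 and 3) and gave adjusted p = 0.0672 with array medians set equal. With doxycycline it had adjusted p = 0.0576 to 0.0932 when 1 of these arrays was left out, doxycycline 0 h experiment 3 and doxycycline and tunicamycin 12 h experiment 3, and its 5 h fall had adjusted p = 0.0585 to 0.0694 when 1 of these arrays was left out, doxycycline 0 h experiment 2 and doxycycline and tunicamycin 5 h experiment 2.

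Ppt1 (probe set 10507784), which removes palmitate from proteins, was higher with doxycycline. With doxycycline, Ppt1 stood at 11.56, 11.63 and 11.53 at 0 h, 11.65, 11.66 and 11.60 at 5 h and 11.52, 11.47 and 11.50 at 12 h of tunicamycin. Without doxycycline, Ppt1 stood at 11.51, 11.39 and 11.44 in vehicle, 11.48, 11.46 and 11.39 at 5 h and 11.35, 11.28 and 11.19 at 12 h of tunicamycin. At each time all arrays with doxycycline stood above all arrays without. The difference was 0.13 ± 0.051 (SE, adjusted p = 0.132) at 0 h, 0.19 ± 0.051 (SE, adjusted p = 0.0167) at 5 h and 0.23 ± 0.051 (SE, adjusted p = 0.00446) at 12 h, and the 5 h call had adjusted p = 0.0515 to 0.0874 when 1 of these arrays was left out, doxycycline and tunicamycin 5 h experiments 1 and 2 and tunicamycin 5 h experiment 3. At 12 h of tunicamycin the change was -0.08 ± 0.051 (SE, adjusted p = 0.335) with doxycycline and -0.17 ± 0.051 (SE, adjusted p = 0.0151) without. The call without doxycycline had adjusted p = 0.0878 to 0.0957 when 1 of these arrays was left out, vehicle experiment 1 and tunicamycin 12 h experiment 3. Between 5 and 12 h with doxycycline it was -0.14 ± 0.051 (SE, adjusted p = 0.0559), and adjusted p = 0.0378 with the experiment as a block.

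Asah1 (probe set 10578361), acid ceramidase, was called once. With doxycycline, Asah1 stood at 11.87, 11.83 and 11.87 at 0 h, 11.93, 11.89 and 11.83 at 5 h and 11.76, 11.68 and 11.66 at 12 h of tunicamycin. Without doxycycline, Asah1 stood at 11.86, 11.65 and 11.81 in vehicle, 11.77, 11.68 and 11.72 at 5 h and 11.89, 11.78 and 11.66 at 12 h of tunicamycin. With doxycycline the 12 h arrays stood below the 5 h arrays, a change of -0.18 ± 0.062 (SE, adjusted p = 0.0344), with adjusted p = 0.0877 to 0.122 when 1 of these arrays was left out, doxycycline and tunicamycin 5 h experiments 1 and 2 and doxycycline and tunicamycin 12 h experiments 2 and 3. Against 0 h the 12 h change was -0.16 ± 0.062 (SE, adjusted p = 0.0647), and adjusted p = 0.0321 with the experiment as a block.

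Both soluble cofactors were higher with doxycycline at 12 h. Npc2 (probe set 10401519) encodes the small protein that hands cholesterol to the membrane protein Npc1. With doxycycline, Npc2 stood at 9.72, 9.68 and 9.76 at 0 h, 9.83, 9.73 and 9.75 at 5 h and 10.16, 10.06 and 10.02 at 12 h of tunicamycin. Without doxycycline, Npc2 stood at 9.69, 9.54 and 9.60 in vehicle, 9.70, 9.54 and 9.59 at 5 h and 9.63, 9.63 and 9.63 at 12 h of tunicamycin. With doxycycline the 12 h values stood above all earlier ones, and without doxycycline the 3 times overlapped. The doxycycline difference was 0.11 ± 0.055 (SE, adjusted p = 0.266) at 0 h, 0.16 ± 0.055 (SE, adjusted p = 0.0706) at 5 h and 0.45 ± 0.055 (SE, adjusted p = 1.11e-05) at 12 h, with adjusted p = 0.0301 at 5 h with the experiment as a block. At 12 h of tunicamycin Npc2 had risen by 28.4% with doxycycline (0.36 ± 0.055 SE, adjusted p = 3.52e-05), and the change without was 0.02 ± 0.055 (SE, adjusted p = 0.859).

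Psap (probe set 10363430) encodes the precursor of the saposins, which lift lipids out of membranes for the hydrolases. With doxycycline, Psap stood at 12.46, 12.42 and 12.41 at 0 h, 12.50, 12.42 and 12.37 at 5 h and 12.37, 12.40 and 12.35 at 12 h of tunicamycin. Without doxycycline, Psap stood at 12.35, 12.26 and 12.34 in vehicle, 12.30, 12.30 and 12.30 at 5 h and 12.25, 12.22 and 12.21 at 12 h of tunicamycin. At 0 and 5 h all doxycycline arrays of Psap stood above those without, differences that were not called. The 12 h arrays with doxycycline also stood above those without, by 0.15 ± 0.044 (SE, adjusted p = 0.0289). That call was lost with array medians set equal (0.0735) and had adjusted p = 0.052 to 0.0881 when 1 of these arrays was left out, doxycycline and tunicamycin 12 h experiments 1, 2 and 3 and tunicamycin 12 h experiments 2 and 3. Its 12 h tunicamycin change was -0.05 ± 0.044 (SE, adjusted p = 0.446) with doxycycline and -0.09 ± 0.044 (SE, adjusted p = 0.169) without.

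Of the 7 membrane proteins, 1 had a response to tunicamycin that differed with doxycycline. Mcoln1 (probe set 10569771) encodes TRPML1, the cation channel that releases lysosomal calcium. With doxycycline, Mcoln1 stood at 10.86, 10.78 and 10.89 at 0 h, 10.84, 10.80 and 10.91 at 5 h and 10.67, 10.92 and 10.77 at 12 h of tunicamycin. Without doxycycline, Mcoln1 stood at 10.76, 10.68 and 10.70 in vehicle, 10.82, 10.90 and 10.94 at 5 h and 10.99, 11.06 and 11.15 at 12 h of tunicamycin. Without doxycycline the 12 h values lay above all vehicle values, and with doxycycline the 3 times overlapped. The change at 12 h was -0.05 ± 0.062 (SE, adjusted p = 0.614) with doxycycline and 0.35 ± 0.062 (SE, adjusted p = 0.000206) without. With doxycycline against without, Mcoln1 differed by 0.13 ± 0.062 (SE, adjusted p = 0.244) at 0 h, -0.04 ± 0.062 (SE, adjusted p = 0.823) at 5 h and -0.28 ± 0.062 (SE, adjusted p = 0.00379) at 12 h.

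Cln3 (probe set 10567964), a membrane protein lost in juvenile Batten disease, fell in both conditions. With doxycycline, Cln3 stood at 9.66, 9.58 and 9.62 at 0 h, 9.72, 9.56 and 9.55 at 5 h and 9.21, 9.28 and 9.34 at 12 h of tunicamycin. Without doxycycline, Cln3 stood at 9.57, 9.42 and 9.58 in vehicle, 9.56, 9.40 and 9.43 at 5 h and 9.20, 9.26 and 9.05 at 12 h of tunicamycin. All 12 h values lay below all 0 h values. The 12 h change was -0.34 ± 0.066 (SE, adjusted p = 0.000438) with doxycycline and -0.35 ± 0.066 (SE, adjusted p = 0.000403) without. Lamp1 fell by 13.4% with doxycycline (-0.21 ± 0.044 SE, adjusted p = 0.00106) and by 15.8% without (-0.25 ± 0.044 SE, adjusted p = 0.000204). Lamp2, the second major glycoprotein of the membrane, had a change of 0.03 ± 0.044 (SE, adjusted p = 0.655) with doxycycline and 0.06 ± 0.044 (SE, adjusted p = 0.425) without.

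Scarb2 (probe set 10531437), which encodes LIMP-2, the receptor that carries glucocerebrosidase to the lysosome, was higher with doxycycline at 5 h. With doxycycline, Scarb2 stood at 8.96, 9.04 and 8.96 at 0 h, 9.05, 8.89 and 8.97 at 5 h and 8.85, 8.72 and 8.86 at 12 h of tunicamycin. Without doxycycline, Scarb2 stood at 8.83, 8.77 and 8.77 in vehicle, 8.76, 8.48 and 8.79 at 5 h and 8.65, 8.70 and 8.59 at 12 h of tunicamycin. At 0 and 12 h, too, all doxycycline arrays stood above those without. The difference was 0.20 ± 0.070 (SE, adjusted p = 0.0821) at 0 h, 0.29 ± 0.070 (SE, adjusted p = 0.00758) at 5 h and 0.17 ± 0.070 (SE, adjusted p = 0.137) at 12 h. The 5 h call did not hold under all 30 alternatives. In the 5 h group without doxycycline (SD 0.17) the lowest value, 8.48, came from an array of the pair with largest residual spread. Without that pair the 0 h difference passed (adjusted p = 0.0195). Lamp2 was also higher with doxycycline at 5 h, by 0.15 ± 0.044 (SE, adjusted p = 0.0261), with adjusted p = 0.0507 to 0.0798 when 1 of these arrays was left out, doxycycline and tunicamycin 5 h experiments 2 and 3 and tunicamycin 5 h experiments 1, 2 and 3. At 0 h all Lamp2 arrays with doxycycline stood above those in vehicle (means 12.28 and 12.18), which was not called. At 12 h the Lamp2 arrays with and without doxycycline overlapped (means 12.31 and 12.23). Npc1, which moves cholesterol out of the lysosome, had a 12 h change of 0.10 ± 0.057 (SE, adjusted p = 0.232) with doxycycline and of 0.24 ± 0.057 (SE, adjusted p = 0.00288) without. The tetraspanin Cd63 was called in 0 of the 11 comparisons, and its 12 h changes were 0.05 with doxycycline and 0.02 without.

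**Figure D5:**
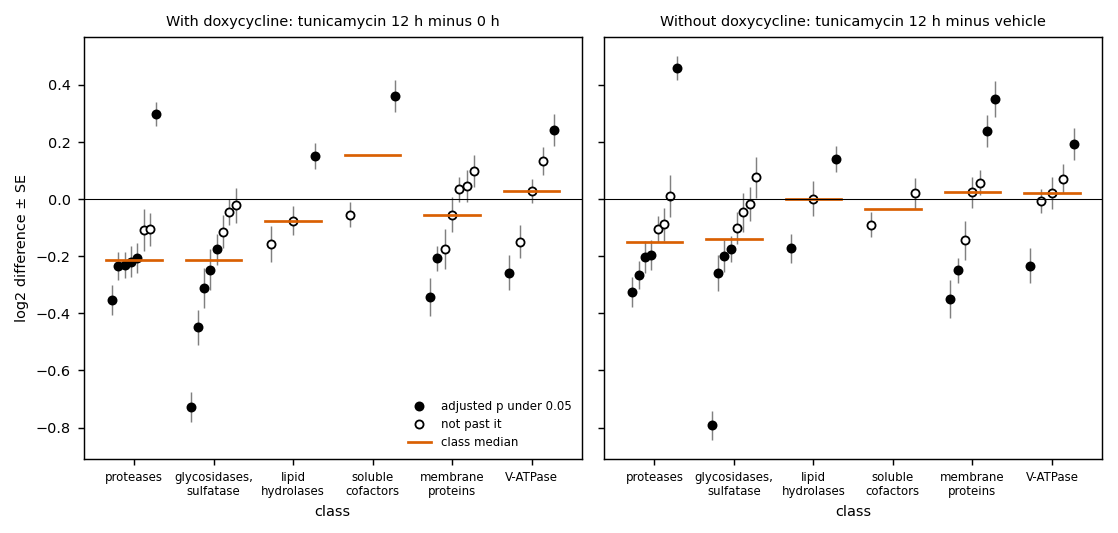
Log2 change at 12 h of tunicamycin for each member by class, with doxycycline (against doxycycline at 0 h) on the left and without (against vehicle) on the right; points are genes with their SE, filled where called, and orange lines are class medians. Gusb is the lowest point and Ctsl and Npc2 the highest on the left; Ctsl and Mcoln1 are the highest on the right.

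The 5 proton pump subunits among the members showed no common direction. Further subunits are given below with the other lysosomal genes. Atp6v0d1 (probe set 10581289) encodes the subunit that joins the membrane sector V0 to the ATP-splitting sector V1. With doxycycline, Atp6v0d1 stood at 11.28, 11.08 and 11.21 at 0 h, 11.25, 11.12 and 11.22 at 5 h and 11.43, 11.46 and 11.41 at 12 h of tunicamycin. Without doxycycline, Atp6v0d1 stood at 11.28, 11.20 and 11.25 in vehicle, 11.29, 11.19 and 11.15 at 5 h and 11.45, 11.42 and 11.45 at 12 h of tunicamycin. The 12 h arrays stood above the 0 h arrays in both conditions, a change of 0.24 ± 0.056 (SE, adjusted p = 0.00201) with doxycycline and 0.19 ± 0.056 (SE, adjusted p = 0.0125) without. The call without doxycycline had adjusted p = 0.0567 without the array of vehicle experiment 2.

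Atp6v1a (probe set 10439566), the catalytic subunit of V1, went the other way. With doxycycline, Atp6v1a stood at 11.69, 11.58 and 11.59 at 0 h, 11.57, 11.39 and 11.31 at 5 h and 11.32, 11.41 and 11.37 at 12 h of tunicamycin. Without doxycycline, Atp6v1a stood at 11.62, 11.57 and 11.62 in vehicle, 11.50, 11.47 and 11.49 at 5 h and 11.43, 11.39 and 11.29 at 12 h of tunicamycin. The 12 h arrays stood below the 0 h arrays, a change of -0.26 ± 0.060 (SE, adjusted p = 0.00239) with doxycycline and -0.23 ± 0.060 (SE, adjusted p = 0.00575) without. Its 5 h change with doxycycline was -0.20 ± 0.060 (SE, adjusted p = 0.0381), with adjusted p = 0.0553 to 0.201 when 1 of these arrays was left out, doxycycline 0 h experiments 1, 2 and 3 and doxycycline and tunicamycin 5 h experiments 2 and 3.

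Atp6v1b2 (probe set 10572146), the nucleotide-binding B subunit of V1, was lower with doxycycline at 12 h. With doxycycline, Atp6v1b2 stood at 11.92, 11.81 and 11.81 at 0 h, 12.05, 11.95 and 12.01 at 5 h and 11.73, 11.72 and 11.63 at 12 h of tunicamycin. Without doxycycline, Atp6v1b2 stood at 12.00, 11.84 and 11.92 in vehicle, 12.09, 11.92 and 11.94 at 5 h and 11.97, 11.93 and 11.92 at 12 h of tunicamycin. The 3 arrays with doxycycline at 12 h were the lowest of all 18. The doxycycline difference at 12 h was -0.24 ± 0.057 (SE, adjusted p = 0.00523), and the change between 5 and 12 h with doxycycline -0.31 ± 0.057 (SE, adjusted p = 0.000338). Against 0 h with doxycycline its change was 0.16 ± 0.057 (SE, adjusted p = 0.08) at 5 h and -0.15 ± 0.057 (SE, adjusted p = 0.0565) at 12 h; with the experiment as a block these gave adjusted p = 0.0289 and 0.0189. The membrane subunit Atp6v0a1 had a 12 h change of 0.13 ± 0.050 (SE, adjusted p = 0.052) with doxycycline (0.0349 with the block) and of 0.07 ± 0.050 (SE, adjusted p = 0.362) without. The regulatory subunit Atp6v1h had a change of 0.03 with doxycycline and -0.01 without and was called in 0 comparisons.

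Whether doxycycline altered the response to tunicamycin was tested as the difference of the 2 responses. At 12 h 1 member had a higher response with doxycycline, Npc2 (0.34 ± 0.078 SE, adjusted p = 0.0282), beside 0.993% of all genes, and 1 a lower one, Mcoln1 (-0.40 ± 0.088 SE, adjusted p = 0.0205), beside 0.848%. Both went the same way in 3 of 3 experiments, and 7 members had an unadjusted p under 0.05 (Ctsl, Neu1, Naglu, Sgsh, Npc2, Mcoln1 and Atp6v1b2). The share of all genes under that unadjusted p was not computed at 5 or 12 h, so such counts are not read as an excess. The call of Npc2 had adjusted p = 0.0576 to 0.0872 when 1 of these arrays was left out, doxycycline 0 h experiments 1 and 2, vehicle experiments 1 and 3, doxycycline and tunicamycin 12 h experiment 1 and tunicamycin 12 h experiments 1 and 3. That of Mcoln1 had adjusted p = 0.0538 to 0.0641 when 1 of these arrays was left out, doxycycline 0 h experiments 1 and 3, vehicle experiments 2 and 3, doxycycline and tunicamycin 12 h experiments 1 and 3 and tunicamycin 12 h experiment 3. At 5 h 0 members passed in limma (up in 0.0301% and down in 0% of all genes), 1 had an unadjusted p under 0.05, Atp6v1h, and 0 passed under any of the alternatives run. For the other members the difference at 12 h ranged from -0.32 for Naglu to 0.13 for Glb1. Over all genes the split at 12 h was 198 higher and 169 lower responses, and 230 and 87 once the array medians were made equal.

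The other lysosomal genes measured, 96 of 102 listed, also moved in both directions. At 12 h of tunicamycin 33 fell and 17 rose with doxycycline, and 29 fell and 16 rose without it. As shares of the 96, 34.4% fell and 17.7% rose with doxycycline, beside 16.6% and 13.4% of all genes, and 30.2% and 16.7% without it, beside 15.8% and 11.9%. Their median change was -0.08 with doxycycline and -0.03 without. Of 26 further membrane proteins, 8 fell and 7 rose with doxycycline and 7 fell and 7 rose without, which is 30.8% and 26.9%, and 26.9% and 26.9%. The 2-pore channel Tpcn1 had a change of -0.76 with doxycycline and -0.87 without, the heparan sulfate acetyltransferase Hgsnat of -0.65 with doxycycline and -0.84 without, the glycoprotein Cd68 of -0.56 with doxycycline and -0.72 without, and the transporter-like Mfsd8 of 0.54 with doxycycline and 0.59 without. Of 24 further hydrolases 9 fell and 4 rose with doxycycline and 8 fell and 3 rose without; the amidase Naaa had a change of -0.52 with doxycycline and -0.50 without. Of 16 further V-ATPase subunits 4 fell and 0 rose with doxycycline and 3 fell and 1 rose without, among them Atp6v1e1, a stalk subunit of V1 (-0.37 with doxycycline and -0.37 without).

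Of 11 genes that sort the hydrolases, 5 fell and 1 rose with doxycycline at 12 h of tunicamycin, and 3 fell and 2 rose without. As shares, 45.5% fell and 9.09% rose with doxycycline, beside 16.6% and 13.4% of all genes, and 27.3% and 18.2% without it, beside 15.8% and 11.9%. Gnptab, the enzyme that starts the mannose 6-phosphate tag, had a change of -0.69 ± 0.049 (SE, adjusted p = 2.32e-09) with doxycycline and -0.67 ± 0.049 (SE, adjusted p = 3.98e-09) without. The mannose 6-phosphate receptor gene Igf2r had a change of -0.46 ± 0.050 (SE, adjusted p = 7.22e-07) with doxycycline and -0.56 ± 0.050 (SE, adjusted p = 5.96e-08) without, and the alternative receptor Sort1 of -0.42 with doxycycline and -0.32 without.

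Among 19 regulators of lysosomal genes and nutrient sensing 7 fell and 5 rose with doxycycline at 12 h of tunicamycin, and 8 fell and 3 rose without. These are 36.8% and 26.3% with doxycycline, and 42.1% and 15.8% without it, beside the shares of all genes given for the sorting genes. The GTPase gene Rragd had a change of -0.69 with doxycycline and -0.54 without. The transcription factors Tfe3 and Tfeb are named for their role, a choice made after their values were seen: Tfe3 had a change of 0.23 ± 0.052 (SE, adjusted p = 0.00202) with doxycycline and 0.48 ± 0.052 (SE, adjusted p = 7.29e-07) without, and Tfeb of -0.38 ± 0.064 (SE, adjusted p = 8.93e-05) with doxycycline and -0.39 ± 0.064 (SE, adjusted p = 9.73e-05) without. With doxycycline against without, the Mitf difference was -0.60, -0.73 and -0.76 at 0, 5 and 12 h and that of Rragd -0.57, -0.55 and -0.72. In the same comparisons the pump subunit Tcirg1 had a change of -0.39, -0.43 and -0.42, the iduronate sulfatase Ids of -0.44, -0.49 and -0.58, and the cathepsin gene Ctsh of 0.39, 0.41 and 0.71, all called.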

How the data were processed

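Total RNA from 18 cultures of B16 F10.9-4 cells was labelled and hybridised to 1-colour Affymetrix arrays. The files deposited by the authors hold log2 intensities of 35557 probe sets. Per the submitters' processing notes they were summarised by RMA, and Partek is named with no version. No genome build is named there. RMA understates the change of dim probe sets. Gene names are those of the platform annotation: 21789 carry 1 symbol, 1621 several and 12147 none, which left 19938 genes, each read from its brightest single-symbol probe set.

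Groups and replicate numbers came from the labels, which, with the series design, make the numbers 3 independent experiments. Over the 45 pairs of arrays of 1 experiment the deviations from group means had a median r of 0.04 (-0.50 to 0.50). The deposited log2 values were fitted in limma 3.58.1 (R 4.3.3) with 6 group means and no block, on 12 residual and 5.99 prior degrees of freedom; p-values were adjusted by Benjamini and Hochberg's method over all genes, and 11 comparisons and an F test were made. The fit was tested on simulated data. Members described by every array are up to 3 a class with the largest called change; from each wider list, up to 4 called genes. Members and lists were chosen with earlier results of these data known. Alternatives were the experiment as a block, only the compared groups, repeated quantile normalization, equal array medians, array weights, robust estimation with a variance trend, averaging a gene's probe sets, leaving out dim genes, and leaving out arrays or experiments. The 2 doubted arrays are those of largest residual spread, tunicamycin without doxycycline at 5 h in experiment 2 and at 12 h in experiment 3; an earlier analysis of these data had doubted them. Promoters are RefSeq's.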

Additional observations from a re-analysis of the deposited data

Results flagged for a closer look

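The response to 12 h of tunicamycin differed with doxycycline in 2 members, by a test of the difference itself. For Npc2, which binds cholesterol in the lysosomal lumen, the response was 0.36 with doxycycline and 0.02 without, a difference of 0.34 ± 0.078 (SE, adjusted p = 0.0282), higher in 3 of 3 experiments. For Mcoln1, the lysosomal cation channel TRPML1, it was -0.05 with doxycycline and 0.35 without, a difference of -0.40 ± 0.088 (SE, adjusted p = 0.0205), lower in 3 of 3 experiments. Over all genes 0.993% had a higher and 0.848% a lower response. Each call was lost when any 1 of 7 single arrays was left out, with adjusted p = 0.0576 to 0.0872 for Npc2 and adjusted p = 0.0538 to 0.0641 for Mcoln1, and that of Mcoln1 also without the 2 doubted arrays (adjusted p = 0.0544). The cause of either difference was not tested.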

How the results depend on the processing

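Of 86 calls among the members, 32 held under all 30 alternatives; of 10879 member values, 0 turned sign while called, 259 lost a call (209 of them with an array or experiment left out) and 111 gained one. Among the 30, averaging a gene's probe sets could not alter the members' own values, since each has 1 probe set. At 12 h of tunicamycin the calls that held were, with doxycycline, those of Ctsa, Ctsb, Ctsl, Tpp1, Gusb, Sgsh, Npc2, Cln3 and Atp6v1a and, without, those of Ctsb, Ctsl, Tpp1, Gusb, Lamp1, Mcoln1 and Cln3; with doxycycline against without they were Gla and Npc2 at 12 h and 0 at 0 or 5 h. With 1 array or experiment left out, the member counts ranged over 1 to 4, 1 to 7 and 2 to 9 for doxycycline at 0, 5 and 12 h, 0 to 2 and 10 to 18 for tunicamycin at 5 and 12 h with doxycycline and 0 to 2 and 7 to 18 without, 9 to 17 and 5 to 14 between 5 and 12 h with and without it, 0 to 0 and 0 to 2 for the differences of response at 5 and 12 h, and 14 to 26 for any of the groups. The other alternatives moved these counts by over 1.5 times: only the compared groups gave 1 in place of 6 (doxycycline, 5 h), 0 in place of 2 (tunicamycin 5 h), 1 in place of 2 (tunicamycin 5 h with doxycycline) and 9 in place of 14 (12 h against 5 h without doxycycline); trend with robust estimation gave 5 in place of 3 (doxycycline, 0 h), 4 in place of 2 (tunicamycin 5 h with doxycycline) and 4 in place of 2 (response difference, 12 h); array weights gave 6 in place of 3 (doxycycline, 0 h) and 5 in place of 2 (tunicamycin 5 h); leaving out dim genes gave 11 in place of 6 (doxycycline, 5 h) and 4 in place of 2 (tunicamycin 5 h with doxycycline); equal array medians gave 1 in place of 2 (tunicamycin 5 h with doxycycline). Without the 2 doubted arrays the counts were 1 in place of 2 (tunicamycin 5 h), 9 in place of 14 (12 h against 5 h without doxycycline) and 1 in place of 2 (response difference, 12 h), where Mcoln1 had adjusted p = 0.0544. Fewer arrays or genes enter some of these fits; otherwise the cause was not tested. With the experiment as a replicate block the counts were 3, 7 and 7 for doxycycline at 0, 5 and 12 h, 3 and 20 for tunicamycin at 5 and 12 h with doxycycline and 2 and 17 without, 17 and 12 between 5 and 12 h with and without, 0 and 2 for the differences of response, and 27 for any of the groups; the added member of the last is Asah1 (F test adjusted p = 0.0477, against 0.111 with no block), and no pairwise call changed beyond those given with the genes. Neither repeated quantile normalization nor equal array medians moved the median change of all genes by over 0.1 in any comparison. With equal array medians that of doxycycline at 0 h went from 0.016 to -0.034. These medians were not computed for the other alternatives.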
